A study of Mus musculus with 23 samples.

Results

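The comparison set 2-cell embryos from oocytes with deleted Cxxc1, the gene of CFP1, against wild-type embryos of the stage before, the zygote. It used 6 of 23 RNA sequencing libraries of mouse oocytes and embryos and asked how far the deletion embryos at the 2-cell stage resembled the previous stage. Its members were the genes with an FPKM (fragments scaled to transcript length and library size) of at least 1 in at least 2 of the 6 libraries, which were 10900 of the 24506 entries in the table. The deletion 2-cell embryos (3 libraries) came from Cxxc1fl/fl;Zp3-Cre females, in which Cre removes floxed Cxxc1 in growing oocytes, mated with wild-type males. The zygotes (3 libraries) had wild-type parents on both sides. The deletion embryos had therefore received an intact paternal allele. Wild-type 2-cell embryos (2 libraries) and zygotes of deletion females (3 libraries) were used for reference, as were 4 groups of germinal vesicle (GV) oocytes, from wild-type females of 3 weeks and 3 months, 3-week Zp3-Cre females and 3-month Gdf9-Cre females. The sources used here do not state strain, age of the embryos' mothers, hours after fertilization or the number of embryos in a library. Genotype and stage changed together between the groups compared and cannot be told apart in any value of this contrast. The labels do not say that libraries of a group came from separate females, so the spread between libraries may be technical. The spread behind each p-value and interval was pooled over all 23 libraries. It can be too small for a group that varies more than the others.

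CFP1, encoded by Cxxc1, binds unmethylated CpG through its CXXC zinc finger and belongs to the SETD1 complexes, which methylate histone H3 on lysine 4. A fully grown oocyte is transcriptionally silent and stores mRNA, much of which is degraded during maturation and after fertilization. The mouse embryo starts its own transcription weakly in the zygote and strongly at the 2-cell stage, when ribosome biogenesis genes and a transient set of 2-cell genes such as the Zscan4 family are switched on. Maternal and embryonic transcripts are described separately here.

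Between the 6 libraries, total FPKM was 335591 to 347101 in wild-type zygotes and 351522 to 383088 in deletion 2-cell embryos. Wild-type zygotes held 8663 to 8875 genes at 1 FPKM or more, and deletion 2-cell embryos 10481, 10187 and 12333. The read depth is unknown, but the smallest steps between low FPKM values placed it at 1.01 to 1.11 times that of zygote library 1 in the other 5. Deletion 2-cell library 3 stood apart: 564 of the 10900 genes were at least 2-fold above both other libraries of its group, against 15 for library 1 and 8 for library 2. The main counts, the stage axes and the lists and genes that it moved most are given with and without it. The markers of oocyte identity, 10 of 10 at 1 FPKM or more in all 6 libraries, summed to 4461 to 5147 FPKM in zygotes and 3074 to 3445 in deletion 2-cell embryos. This sum followed its most abundant members, as Oosp1, H1foo and Gdf9 were lower in every deletion library than in every zygote library. Zp1, Zp2, Zp3, Nlrp5, Ooep and Bmp15 were higher in every deletion library, and Mos overlapped.

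Most genes differed between deletion 2-cell embryos and wild-type zygotes. A linear model over all 23 libraries (limma on log2(FPKM + 1), Benjamini-Hochberg adjusted p under 0.05) called 8456 of 10900 genes (77.6%), 6156 higher (56.5%) and 2300 lower (21.1%) in the deletion embryos. At least 2-fold differences were called for 3755 higher (34.4%) and 778 lower genes (7.14%). For 4240 genes (38.9%) the 95% interval of the difference lay within 2-fold in either direction. All 3 deletion libraries lay above all 3 zygote libraries for 5818 genes (53.4%) and below them for 2145 (19.7%). Without deletion library 3, 5892 genes were higher (54.1%) and 2371 lower (21.8%). A fit on the 6 libraries only, with the spread of these groups alone, called 7421 of the 10900 genes. Of these, 5477 were higher and 1944 lower, and 3520 of all genes lay within 2-fold.

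The balance of higher and lower genes depended on the scale. The median log2 difference of all genes was 0.58 with FPKM as deposited, 0.27 after median-of-ratios scaling and -0.02 after quantile normalization. Of the genes called, 72.8% were higher as deposited, 59.9% (4998 higher, 45.9% of those tested, and 3346 lower, 30.7%) with median-of-ratios scaling and 47.8% (3773 higher, 34.6%, and 4124 lower, 37.8%) with quantile normalization. RNA was taken from whole embryos, and neither the number of embryos in a library nor the RNA per embryo is known here. FPKM shows a transcript's share of its library only. More genes lay within 2-fold of deletion zygotes than of either wild-type group. Against deletion zygotes 6529 genes were called (59.9%), 4180 higher (38.3%) and 2349 lower (21.6%), with 1215 (11.1%) and 637 (5.84%) at 2-fold or more and 6673 (61.2%) within 2-fold. Against wild-type 2-cell embryos 7746 were called (71.1%), 4911 higher (45.1%) and 2835 lower (26.0%), with 2464 (22.6%) and 1710 (15.7%) at 2-fold or more and 4357 (40.0%) within 2-fold. The 3 comparisons share the deletion 2-cell libraries. Gene lists are read against the median of 0.58 over all genes, and their counts against the 56.5% higher and 21.1% lower over all genes.

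On the axis of maternal transcripts the deletion 2-cell embryos lay behind wild-type zygotes, not level with them. The axis was built without either group, from the 1398 genes at least 4-fold higher in wild-type GV oocytes than in wild-type 2-cell embryos, with the former at 0% and the latter at 100% of the fall. Wild-type zygotes had covered 80.5% ± 1.4 (SD, n = 3) of it. Deletion 2-cell embryos stood at 52.6%, 59.9% and 52.6%, a mean of 55.0% ± 4.19 (SD, n = 3) and 56.2% without library 3. Zygotes of deletion females were at 54.8% ± 3.92 (SD, n = 3), a difference from the deletion 2-cell embryos smaller than the SD of either. With quantile normalization this difference was larger than either SD, with 42.0% ± 2.91 (SD, n = 3) in deletion zygotes and 48.2% ± 3.86 (SD, n = 3) in deletion 2-cell embryos. The order of deletion 2-cell embryos and wild-type zygotes was the same with median-of-ratios scaling (58.6% against 74.6%) and with quantile normalization (48.2% against 54.0%), where the gap was much smaller. Of the 1372 oocyte-stage genes tested, 850 were higher and 299 lower than in wild-type zygotes, with a median log2 difference of 0.81. Over all genes tested, 56.5% were higher and 21.1% lower, with a median of 0.58. Under quantile normalization 579 were higher and 476 lower, with a median of 0.16. On that scale 34.6% of all genes were higher and 37.8% lower, with a median of -0.02. No set test was run.

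On the axis of embryonic transcripts the deletion 2-cell embryos lay ahead of wild-type zygotes and far short of wild-type 2-cell embryos. This axis used the 1061 genes at least 4-fold higher in wild-type 2-cell embryos than in GV oocytes. Wild-type zygotes were at -2.93% ± 0.421 (SD, n = 3) and zygotes of deletion females at 4.18% ± 0.674 (SD, n = 3). Deletion 2-cell embryos reached 18.2%, 16.3% and 33.8%, a mean of 22.7% ± 9.65 (SD, n = 3) and 17.2% without library 3. GV oocytes of Gdf9-Cre females, which had never been fertilized, also stood above their wild-type counterparts, at 18.5% ± 1.44 (SD, n = 3). Those of Zp3-Cre females, the Cre line of the embryos' mothers, were at 9.5% ± 1.87 (SD, n = 3). With median-of-ratios scaling Gdf9-Cre oocytes were at 12.7%, Zp3-Cre oocytes at 6.86%, wild-type zygotes at 6.55% and deletion 2-cell embryos at 22.3%. With quantile normalization Gdf9-Cre (8.99%) and Zp3-Cre oocytes (5.04%) were below wild-type zygotes (15.7%), and deletion 2-cell embryos were at 24.8%. Zygotes of deletion females, above wild-type zygotes as deposited, were at 6.13% and 14.2% on these scales, slightly below them. Of the 718 embryo-stage genes that passed the filter, 537 were higher and 51 lower than in zygotes, with a median log2 difference of 1.01 (0.84 without library 3). Under quantile normalization 337 were higher and 139 lower, with a median of 0.45. Many of these genes passed the filter through the 2-cell libraries alone, so this count describes them and shows nothing about the whole set. Against wild-type 2-cell embryos the same 718 genes had a median of -2.38, with 642 lower and 11 higher (percent called in that comparison over all genes, 26.0% lower and 45.1% higher). The set was chosen as high in these same wild-type 2-cell libraries, which favours lower calls, so these counts are a description and support nothing.

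**Figure D1:**
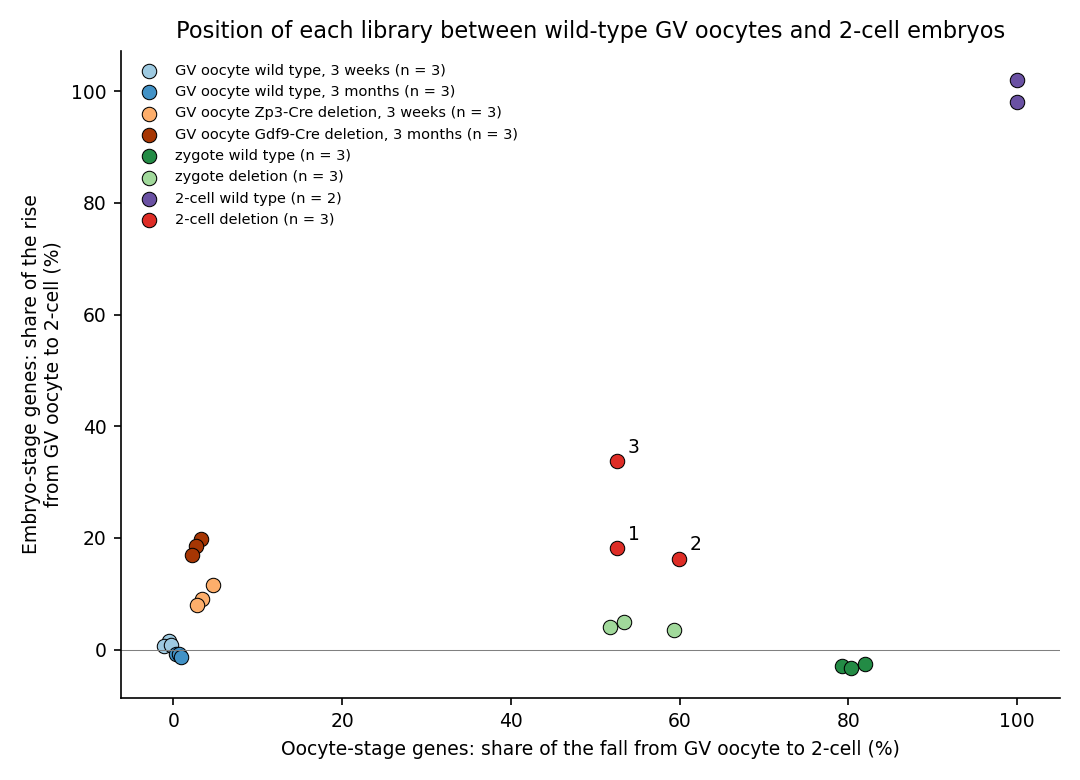
Position of each of the 23 libraries (points, coloured by group) between wild-type GV oocytes (0%) and wild-type 2-cell embryos (100%), from the mean log2(FPKM + 1) of 1398 oocyte-stage genes (x axis, percent of the fall) and 1061 embryo-stage genes (y axis, percent of the rise). Deletion 2-cell libraries, numbered, sit at 52.6% to 59.9% on the x axis, with zygotes of deletion females and left of wild-type zygotes, and at 16.3% to 33.8% on the y axis.

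Across all 10900 genes each deletion 2-cell library was most like zygotes of the same maternal genotype. Pearson's r of log2(FPKM + 1) with the mean of deletion zygotes was 0.932, 0.932 and 0.893 for libraries 1 to 3. With wild-type zygotes it was 0.853, 0.856 and 0.807, and with wild-type 2-cell embryos 0.768, 0.753 and 0.783. GV oocytes came between or above: for library 2 all 4 GV groups had a lower r than wild-type zygotes (0.802 to 0.823), for library 1 the 3-week Zp3-Cre oocytes reached 0.855, and for library 3 all 4 GV groups were closer than wild-type zygotes (0.812 to 0.839). The root mean square log2 difference gave another order for the wild-type groups. It was 0.750, 0.746 and 0.957 to deletion zygotes, 1.23, 1.20 and 1.42 to wild-type zygotes, and 1.29, 1.36 and 1.24 to wild-type 2-cell embryos, so library 3 was farther from wild-type zygotes than from wild-type 2-cell embryos by this measure, an order that quantile normalization reversed (1.24 and 1.35). GV oocytes were nearer than wild-type zygotes for libraries 1 (1.08 to 1.15) and 3 (1.08 to 1.18) and not for library 2 (1.23 to 1.28). With quantile normalization library 1 was at 1.06 to wild-type zygotes and at 1.03 to 1.10 to the GV groups, of which only Zp3-Cre oocytes were nearer. These correlations are across genes, which are not independent replicates, and the genes were chosen on the zygote and deletion 2-cell libraries. Under both other scalings, which were chosen after seeing the data, deletion zygotes stayed the nearest group.

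**Figure D2:**
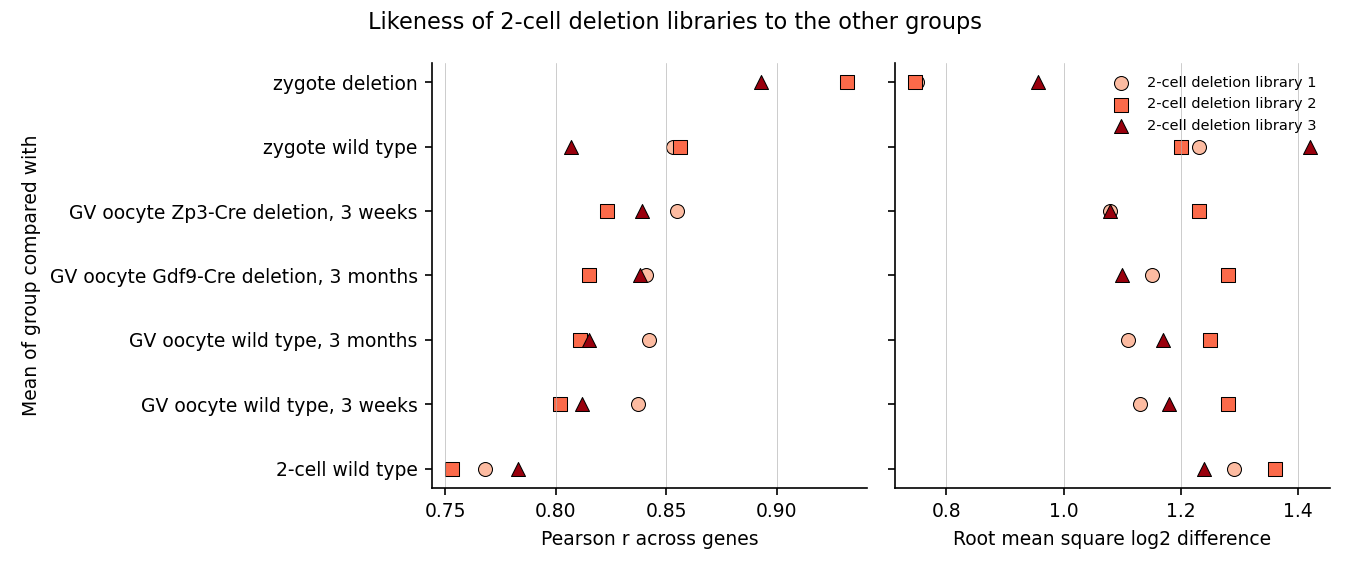
Pearson's r (left) and root mean square difference of log2(FPKM + 1) (right) of each deletion 2-cell library (symbols) to the mean of each other group (rows), over 10900 genes. Deletion zygotes are nearest for each library, at r of 0.893 to 0.932, and wild-type zygotes are at 0.807 to 0.856, below all 4 GV groups for library 3.

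Cxxc1 itself was at 29.1, 24.03 and 30.7 FPKM in wild-type zygotes and 1.17, 0.626 and 4.16 in deletion 2-cell embryos, a log2 difference of -3.45 ± 0.258 (SE, limma adjusted p = 2.94e-10). The groups did not overlap, and library 3 was the highest of the deletion embryos. Without it the difference was -3.94. Deletion zygotes held 1.29, 1.11 and 1.61 FPKM, and the interval of the difference between the deletion groups included 0 (log2 0.18, adjusted p = 0.572 in limma). The gene's whole-length FPKM can hold reads from exons that Cre leaves in place.

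Among the 10 genes of the SETD1 complexes and their partners, 3 were higher and 6 lower, with a median log2 difference of -0.25, where 56.5% of all genes tested were higher and 21.1% lower. Counts of this kind are over the tested members of a list; 0 to 12 members per list in the table did not pass the filter. Ash2l, a core subunit shared by the SETD1 and KMT2 complexes, was at 11.3, 11.04 and 11.6 FPKM in zygotes and 33.8, 35.8 and 29.8 in deletion embryos (log2 1.47 ± 0.0895, SE). The associated factor Bod1l went the other way, from 13.01, 14.1 and 14.5 to 3.35, 3.06 and 4.29 FPKM (log2 -1.71 ± 0.108). The catalytic subunits also differed in direction, with Setd1a lower by 0.82 and Setd1b higher by 0.94 on the log2 scale. Of 13 tested KMT2-family and H3K4 demethylase genes, 3 were higher and 8 lower, the lowest median of the lists at -0.60. Kmt2b, a methyltransferase that oocytes require, was at 105, 100.3 and 104 FPKM in zygotes and 45.9, 37.4 and 34.7 in deletion embryos, where wild-type 2-cell embryos had 33.7 and 46.8. The demethylase gene Kdm5c was at 9.73, 8.75 and 9.72 and 2.99, 2.66 and 4.71 FPKM. Men1, the menin subunit of the KMT2 complexes, was an exception at 2.501, 1.77 and 2.24 against 13.2, 9.07 and 13.99 FPKM (log2 2.03 ± 0.163, SE). The medians of both lists were negative under each scaling.

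The largest increases over wild-type zygotes by the naming rule were Eif3j1, Dppa5a, Zcrb1, Rpsa and Lsm4, with log2 differences from 4.88 to 5.52. Dppa5a, an RNA-binding protein gene of germ cells and early embryos, was at 7.98, 11.6 and 9.12 FPKM in zygotes and 478, 534 and 381 in deletion embryos. Its log2 difference was 5.46 ± 0.164 (SE, limma adjusted p = 5.86e-16). Wild-type 2-cell embryos lay between, at 61.7 and 64.96 FPKM, and 3-week wild-type GV oocytes held 236, 226 and 244. Zcrb1, a component of the minor spliceosome, went from 5.89, 7.24 and 8.27 to 315, 358 and 284 FPKM (log2 5.30 ± 0.141), and Lsm4, which binds U6 RNA, from 3.73, 1.41 and 1.58 to 90.9, 96.5 and 83.1 (log2 4.88 ± 0.191). Timm9, a chaperone of mitochondrial import, was at 2.82, 4.64 and 2.68 FPKM against 105, 98.6 and 79.8. Both Lsm4 and Timm9 were at similar levels in deletion zygotes: Lsm4 at 65.7, 85.9 and 69.7 FPKM and Timm9 at 88.4, 119 and 78.7. The intervals of their differences between the deletion groups lay within 2-fold.

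Ccdc82, a coiled-coil gene, set the deletion 2-cell embryos apart from both kinds of zygote. It was at 42.04, 32.7 and 36.3 FPKM in wild-type zygotes, 89.8, 129.7 and 70.4 in deletion zygotes and 696, 932 and 791 in deletion 2-cell embryos. Wild-type 2-cell embryos held 532 and 450.4 FPKM and wild-type 3-week GV oocytes 827, 668 and 791. The log2 difference of deletion 2-cell embryos was 4.41 ± 0.184 (SE) from wild-type zygotes and 3.08 from deletion zygotes (adjusted p = 9.34e-11 in limma). Dcdc2c, a doublecortin-domain gene, was a large increase toward the 2-cell level. Its 0.973, 0.985 and 0.813 FPKM in zygotes compared with 58.5, 24.4 and 56.1 in deletion embryos (log2 4.52 ± 0.245, SE), but wild-type 2-cell embryos held 584 and 685. Ccdc23 was at 2.14, 0 and 0.554 FPKM in zygotes, listed at 0 in library 2, and at 36.9, 40.8 and 34.7 in deletion embryos. The values of Eif3j1 and Ndufs5 are uncertain. Eif3j1, which has a near-identical copy, was at 0.262, 0.243 and 0.235 FPKM in zygotes and 38.1, 66.5 and 69.8 in deletion embryos, but also at 0.150 FPKM in 1 of 3 deletion zygote libraries against 44.8 and 46.8. Ndufs5 was at 0.000801 FPKM in zygote library 1 and at 6.86 and 13.2 in the others.

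**Figure D3:**
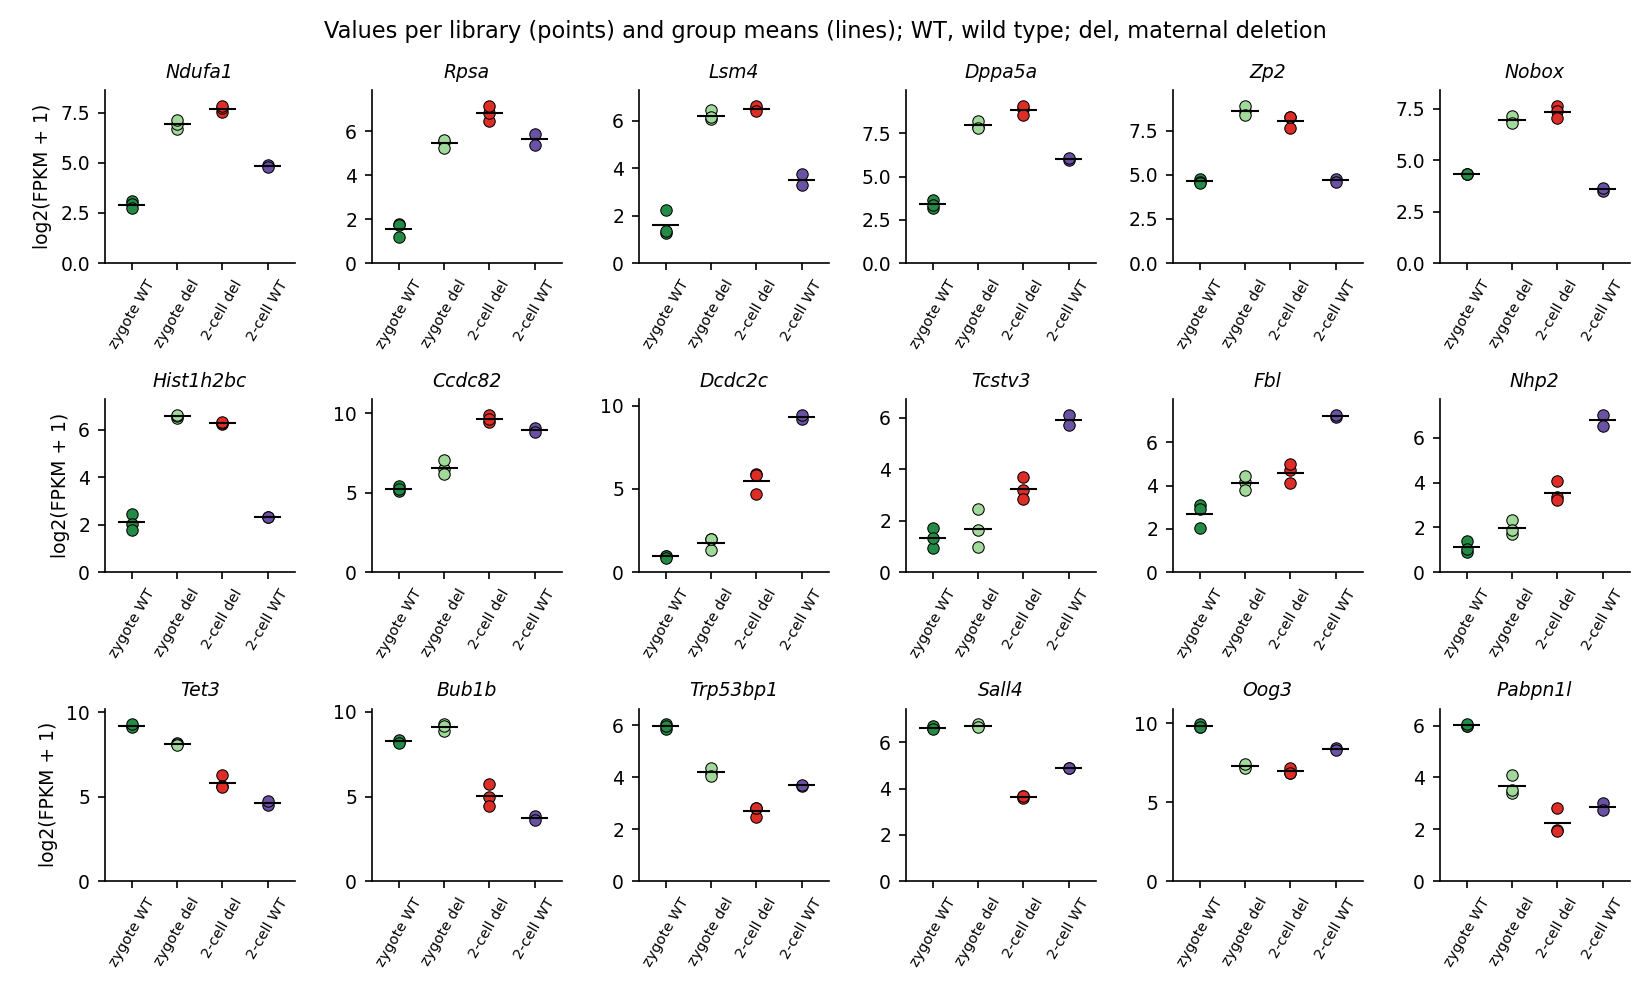
Level of 18 named genes as log2(FPKM + 1) (y axes, log2 scale, ranges differ) per library (points) with group means (lines) in wild-type zygotes, deletion zygotes, deletion 2-cell and wild-type 2-cell embryos. In the first 9 panels from Ndufa1 to Dcdc2c and in the next 3 the 3 deletion 2-cell libraries lie above those of wild-type zygotes, and in the last row, from Tet3 to Pabpn1l, below them.

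The largest decreases included single genes of maternal mRNA turnover (Pabpn1l), 5-methylcytosine oxidation (Tet3) and the spindle checkpoint (Bub1b). The lists that hold these genes had members on both sides. Pabpn1l, an oocyte poly(A)-binding protein that recruits the deadenylation machinery to maternal mRNA, was at 62.02, 62.6 and 65.3 FPKM in zygotes and 2.89, 6.002 and 2.84 in deletion embryos. Its log2 difference was -3.77 ± 0.188 (SE, limma adjusted p = 7.37e-13), and deletion zygotes were already at 9.55, 10.4 and 16.2 FPKM. Wild-type 2-cell embryos held 7.04 and 5.65, so Pabpn1l was low at the 2-cell stage in either genotype. Insm1, a zinc-finger gene, was at 49.2, 41.9 and 57.4 FPKM in zygotes and 4.06, 5.45 and 4.096 in deletion embryos (log2 -3.19 ± 0.166, SE). Oog3, of the oogenesin family, went from 874, 988 and 869 to 114, 145 and 115 FPKM (log2 -2.87 ± 0.0968). Both were already low in deletion zygotes, Insm1 at 4.95, 7.21 and 5.902 FPKM and Oog3 at 159, 145 and 173.

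Other decreases separated the deletion 2-cell embryos from zygotes of both genotypes. Tet3, the dioxygenase that oxidises 5-methylcytosine in the zygote, was at 574, 555 and 623 FPKM in wild-type zygotes and 76.6, 49.2 and 45.7 in deletion 2-cell embryos (log2 -3.37 ± 0.133, SE), against 283, 276 and 269 in deletion zygotes. Bub1b, the spindle checkpoint kinase gene encoding BubR1, was at 301, 329 and 285 FPKM in wild-type zygotes and 29.8, 20.8 and 52.1 in deletion 2-cell embryos (log2 -3.21 ± 0.192), against 619, 474 and 585 in deletion zygotes. For both, wild-type 2-cell embryos were lower still, at 21.9 and 25.4 FPKM of Tet3 and 13.5 and 11.4 of Bub1b. Sall4, a zinc-finger factor of pluripotent cells, was at 97.7, 104 and 94.05 FPKM in wild-type zygotes, 103, 109 and 98.96 in deletion zygotes and 11.97, 10.98 and 11.6 in deletion 2-cell embryos (log2 -2.99 ± 0.0874, SE, limma adjusted p = 3.98e-16). Here wild-type 2-cell embryos held more, 28.8 and 28.5 FPKM. Trp53bp1, the repair factor 53BP1, was also lowest in the deletion 2-cell embryos, with 64.6, 57.4 and 60.8 FPKM in wild-type zygotes, 17.1, 19.6 and 15.4 in deletion zygotes, 4.51, 6.04 and 5.93 in deletion 2-cell embryos and 11.8 and 11.9 in wild-type 2-cell embryos. The remaining named decreases were Zfp616, Lrrc17, Tnks1bp1, Stard13, Zfp423, Zfp235 and Diras2, with log2 differences from -2.83 to -2.60. The naming rule itself required that the groups did not overlap.

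Since CFP1 binds CpG, promoter sequences are shown for genes at both ends of the comparison, the increases Rpsa (a ribosomal protein) and Cox7b (cytochrome oxidase), the decrease Tet3, and the 2-cell gene Zfp352. They are the 120 bases before the annotated start, 5′ to 3′ on the gene's strand, from RefSeq on GRCm38.p6, with CG dinucleotides in capitals. Rpsa lies on the plus strand (chr9:120127646-120127765), Cox7b on the plus strand (chrX:106015580-106015699), Tet3 on the minus strand (chr6:83441679-83441798) and Zfp352 on the plus strand (chr4:90218700-90218819).
Rpsa: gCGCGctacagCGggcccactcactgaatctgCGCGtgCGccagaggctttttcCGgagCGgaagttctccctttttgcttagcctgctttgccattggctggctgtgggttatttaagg
Cox7b: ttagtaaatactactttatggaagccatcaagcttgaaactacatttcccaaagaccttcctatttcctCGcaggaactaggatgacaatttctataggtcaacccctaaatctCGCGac
Tet3: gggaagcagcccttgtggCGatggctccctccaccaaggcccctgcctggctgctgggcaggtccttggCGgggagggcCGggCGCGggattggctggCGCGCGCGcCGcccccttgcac
Zfp352: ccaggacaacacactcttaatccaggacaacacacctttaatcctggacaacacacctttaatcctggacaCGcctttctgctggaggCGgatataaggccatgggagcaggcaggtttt
These stretches held 8, 3, 10 and 2 CG, and the 300-base windows around the start 29, 5, 22 and 2. Of the 27025 promoters in the RefSeq table, 42.6% held more than 10 CG in 300 bases. Of the promoters found for genes tested here, 81.6% did, with a median of 21 CG. A promoter was found for 8264 of the 10900 genes (75.8%), too few for a check of CpG content against the difference, which is void. The count in a window is a description of its letters and says nothing of CFP1 binding there.

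Genes for the ribosome and the respiratory chain had the highest medians of the 29 lists with a pseudocount of 1. With a pseudocount of 0.1 the two-cell-specific genes led, at 3.38 in place of 1.77. Ribosomal protein genes, which supply the subunits of the cytosolic ribosome, had 76 higher and 0 lower members of 78 tested, with a median log2 difference of 2.37. They summed to 1219 to 1407 FPKM in zygotes and to 6911, 7537 and 13947 in deletion embryos, against 8697 and 10946 in wild-type 2-cell embryos. Library 3 was the highest. Without it the count was 73 higher and 0 lower and the median 1.68, and under the other scalings the medians were 2.00 and 1.72. Rpsa was at 2.45, 2.298 and 1.31 FPKM in zygotes and 89.3, 113 and 141 in deletion embryos (log2 5.26 ± 0.1598, SE, limma adjusted p = 6.80e-16). Rplp1, of the ribosomal stalk, was at 23.9, 28.2 and 16.1 and 409, 448 and 527 FPKM, and Rpl34 at 3.63, 6.92 and 3.56 and 83.6, 114 and 154. Reads of these genes can be shared with processed pseudogenes, so single values are uncertain.

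The nuclear-encoded subunits of oxidative phosphorylation had 74 higher and 1 lower member of 76, with a median of 2.22. Their sum was 1201 to 1304 FPKM in zygotes and 5135 to 6121 in deletion embryos, more than the 2389 and 2954 FPKM of wild-type 2-cell embryos. Ndufa1, of complex I, was at 7.52, 6.59 and 5.67 FPKM in zygotes and 186, 213 and 226 in deletion embryos (log2 4.79 ± 0.144, SE). Ndufb3 of the same complex was at 3.88, 2.11 and 5.52 and 86.1, 126 and 117 FPKM, and the cytochrome oxidase subunits Cox7b and Cox7c at 36.2, 47.4 and 37.7 and at 103, 139 and 146 FPKM in deletion embryos, against 0.461, 1.304 and 0.626 and 4.04, 5.64 and 4.88 in zygotes. For genes named as the largest differences, the rule required no overlap between the groups. The median of the list was 2.04 without library 3, 1.89 with median-of-ratios scaling and 1.51 with quantile normalization.

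Further housekeeping lists were higher by less. Their counts stand beside 56.5% higher and 21.1% lower over all genes. Proteasome subunits had 34 higher and 3 lower members of 41 (median 1.46), led by Psma4 at 4.12, 5.05 and 1.49 FPKM in zygotes and 56.3, 60.2 and 48.997 in deletion embryos, and by Psma7 at 8.64, 9.96 and 7.77 and 112, 136 and 80.1. Enzymes of glycolysis and the TCA cycle had 34 higher and 4 lower of 42 (median 1.24). Their Eno1, enolase, was at 19.2, 11.4 and 60.2 FPKM in deletion embryos against 2.94, 4.99 and 2.62 in zygotes, and library 3 was the highest. Without it the log2 difference of Eno1 was 1.84 in place of 2.49. Aldoa, the glycolytic aldolase, was at 6.32, 3.79 and 7.33 and 53.6, 45.7 and 80.3 FPKM. Translation initiation factors had 30 higher and 7 lower of 40 (median 1.15), with Eif3e at 4.55, 3.495 and 3.62 and 38.1, 46.9 and 33.98 FPKM. RNA polymerase II and the general factors had 33 higher and 12 lower of 46 (median 0.70), and the spliceosome 28 higher and 10 lower of 50 (median 0.68), both near the median of all genes. Single members stood far from it: Gtf2h1, a TFIIH subunit, was at 1.53, 1.36 and 1.05 FPKM in zygotes and 37.6, 42.8 and 39.98 in deletion embryos (log2 4.16 ± 0.113, SE), and Lsm5 at 12.8, 16.9 and 10.5 and 182, 255 and 171. The medians of these 5 lists were above 0 under each scaling. With median-of-ratios scaling the spliceosome (0.26) and RNA polymerase II lists (0.33) were again near the median of all genes (0.27). With quantile normalization they were above it (0.39 and 0.41 against -0.02).

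**Figure D4:**
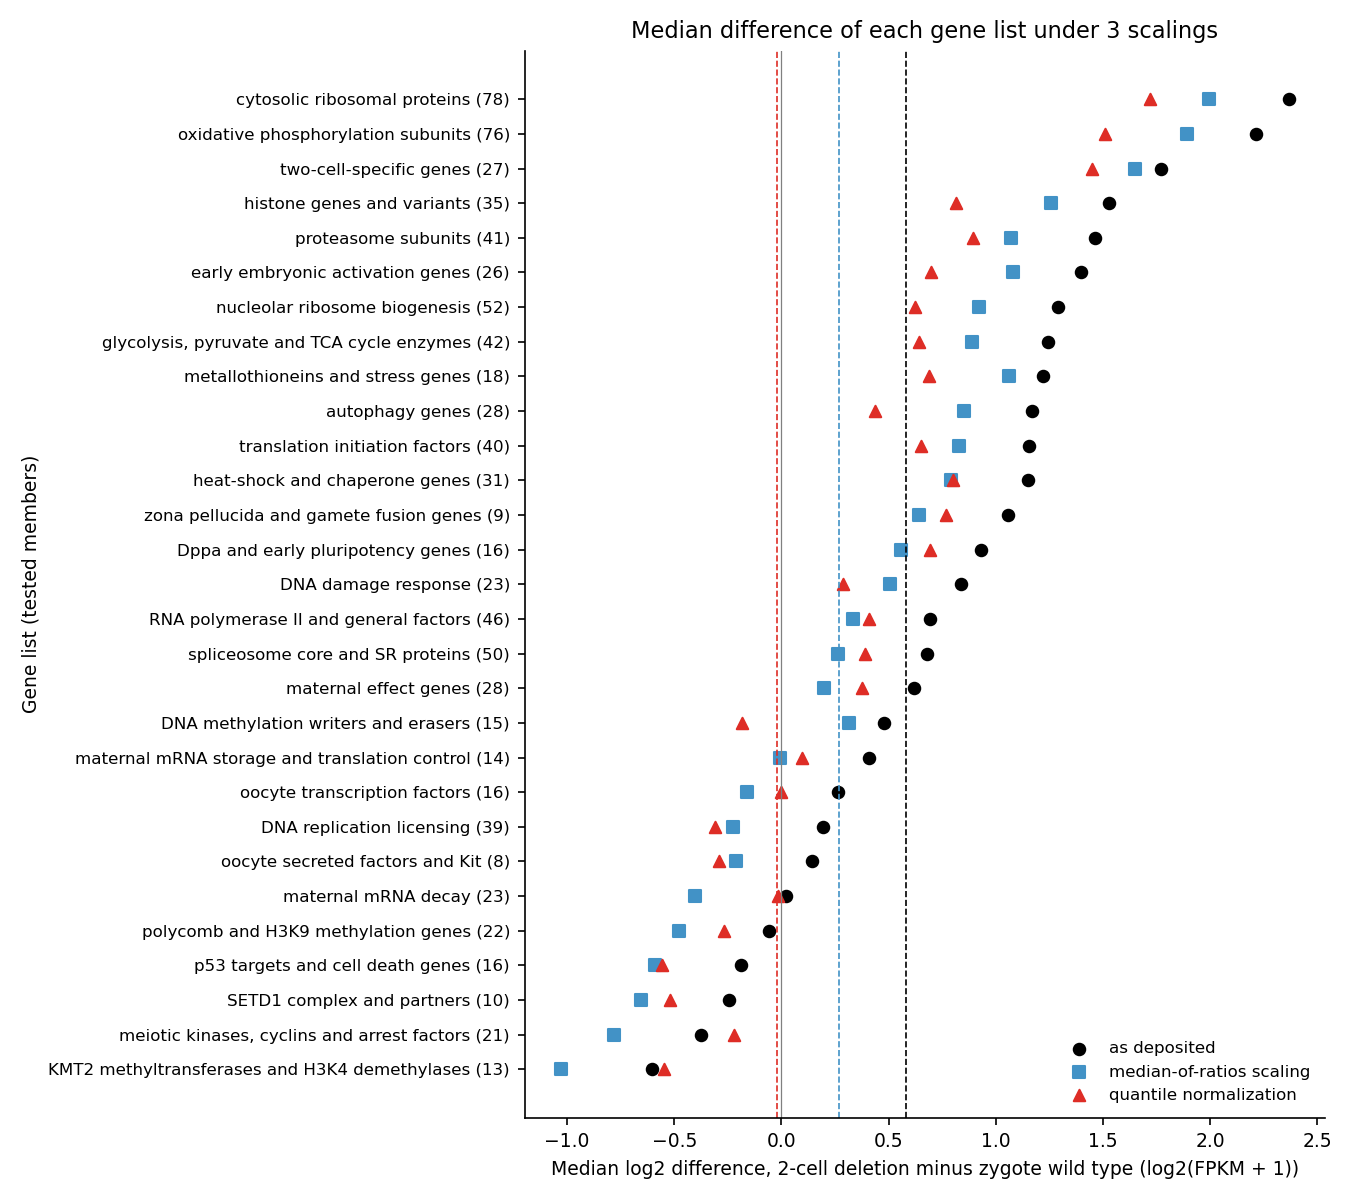
Median log2 difference of the tested members of each of 29 gene lists (rows, number tested in brackets), deletion 2-cell embryos minus wild-type zygotes, with FPKM as deposited (circles), median-of-ratios scaling (squares) and quantile normalization (triangles), and the median of all 10900 genes on each scale (dashed lines). With this pseudocount of 1, ribosomal protein and respiratory genes are highest, at 2.37 and 2.22 as deposited, and KMT2-family and H3K4 demethylase genes lowest, at -0.60.

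Transcripts of the oocyte were found on both sides. Genes for the zona pellucida and gamete fusion had 5 higher and 2 lower of 9 tested, with a median of 1.06. These counts were near the shares over all genes (56.5% higher and 21.1% lower). Zp2, a structural protein of the zona, was at 26.3, 23.5 and 22.5 FPKM in wild-type zygotes and 305, 201 and 311 in deletion embryos (log2 3.42 ± 0.137, SE, limma adjusted p = 2.99e-14). Wild-type 2-cell embryos were at the zygote's level, 26.5 and 22.9 FPKM, and deletion zygotes at 396, 469 and 326. Cd9, the tetraspanin needed for sperm fusion, was at 1.86, 2.63 and 2.02 FPKM in zygotes and 50.6, 58.4 and 75.3 in deletion embryos, and Oosp2, an oocyte-secreted protein, at 26.9, 30.3 and 26.8 and 150.1, 203 and 158. The summed level of the list, which its most abundant members set, was lower in deletion embryos, 2089 to 2545 FPKM against 2772 to 3139 in zygotes. Counts and sums therefore pointed in different directions.

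Oocyte transcription factors had 8 higher and 8 lower members of 16, and their median of 0.26 became -0.16 with median-of-ratios scaling and was just below 0 with quantile normalization. Nobox, the homeobox factor of the growing oocyte, was at 18.8, 19.2 and 19.1 FPKM in zygotes and 196, 169 and 129.6 in deletion embryos (log2 3.03 ± 0.109, SE). Obox2, of a homeobox family with near-identical copies, was at 1156, 1561 and 1061 and 307, 335 and 164 FPKM (log2 -2.27 ± 0.201). Secreted factors and Kit had 4 higher and 2 lower of 8 (median 0.14, but -0.21 with median-of-ratios scaling and -0.29 with quantile normalization). In this list the growth factor genes of the oocyte parted: Gdf9 was at 963, 1055 and 911 FPKM in zygotes and 370.5, 331 and 399.6 in deletion embryos (log2 -1.41 ± 0.0796, SE), and Bmp15 at 254, 187 and 254 and 357, 397 and 446 (log2 0.79 ± 0.145, SE). A lack of overlap between the groups was part of the rule that named these genes. Tgfb2 was at 13.1, 16.7 and 12.8 and 34.96, 35.3 and 36.8 FPKM.

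Maternal effect genes, which act in the embryo through the oocyte's stores, had 16 higher and 11 lower members of 28 (median 0.62, near that of all genes). Khdc3, of the subcortical maternal complex, was at 9.701, 9.81 and 8.78 FPKM in zygotes and 100.2, 77.3 and 80.7 in deletion embryos (log2 3.05 ± 0.164, SE), and Padi6, a protein of the cytoplasmic lattices, at 91.3, 81.4 and 87.4 and 685, 517 and 423. Wild-type 2-cell embryos held 9.09 and 6.37 FPKM of Khdc3 and 58.01 and 41.9 of Padi6. Among the lower members were Tet3, described above, and the genome-methylation factors Trim28 and Uhrf1. Trim28, the co-repressor that protects imprints with Zfp57, was at 124, 130.5 and 113 FPKM in zygotes and 26.9, 22.2 and 32.8 in deletion embryos, below the 91.4 and 93.4 FPKM of wild-type 2-cell embryos. Uhrf1, which guides maintenance methylation, was at 286, 252 and 263 and 97.1, 74.8 and 66.4 FPKM (log2 -1.75 ± 0.115, SE), above the 20.4 and 21.5 of wild-type 2-cell embryos. DNA methylation genes as a list had 8 higher and 4 lower of 15 (median 0.48, but -0.19 with quantile normalization).

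Genes for decay and storage of maternal mRNA showed no common direction. The decay list had 10 higher and 9 lower of 23, and its median of 0.02 was negative under both other scalings (-0.40 and -0.02). Dcp1a, a decapping factor, was at 588, 651 and 592 FPKM in zygotes and 199, 171 and 109 in deletion embryos (log2 -1.97 ± 0.1402, SE), against 35.8 and 38.9 in wild-type 2-cell embryos. The mRNA-destabilizing factor Zfp36l2 was at 3.11, 1.71 and 2.36 and 10.4, 9.55 and 12.8 FPKM. Storage and translation control genes had 8 higher and 2 lower of 14 (median 0.41, but -0.01 with median-of-ratios scaling). Ybx2, the Y-box protein MSY2 that stabilizes oocyte mRNA, was at 97.7, 70.6 and 93.6 FPKM in zygotes and 383, 357 and 312 in deletion embryos, and Lsm14b at 918, 1004 and 902 and 338, 304 and 306. Zar1l was at 7.37, 5.41 and 7.41 and 27.96, 16.5 and 19.3 FPKM. Meiotic kinases, cyclins and arrest factors had 7 higher and 10 lower of 21, with a median of -0.38 that was negative under each scaling. Aurkc, the Aurora kinase of meiosis, was at 224, 215 and 210.4 FPKM in zygotes and 54.3, 75.5 and 37.5 in deletion embryos (log2 -1.99 ± 0.147, SE), whereas the checkpoint kinase Bub1 was at 1.88, 2.05 and 1.496 and 24.5, 27.2 and 19.5 (log2 3.13 ± 0.146, SE).

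Genes of the 2-cell stage were detected in deletion 2-cell embryos above the zygote's level but far below wild-type 2-cell embryos. The 34 two-cell-specific genes in the table summed to 41.3 to 53.6 FPKM in zygotes, 146 to 184 in deletion 2-cell embryos and 1162 and 1271 in wild-type 2-cell embryos. Deletion zygotes held 60.8 to 72.8 FPKM. Of these genes, 4 or 5 reached 1 FPKM in a zygote library, 26 to 28 in a deletion 2-cell library and all 34 in both wild-type 2-cell libraries. The 27 tested passed the filter mostly through the deletion embryos, so their counts, 25 higher and 0 lower than zygotes (median 1.77, or 1.73 without the one gene, Usp17le, listed at 0 in all zygotes), describe them only. The 7 not tested were at most 1.16 FPKM in any of the 6 libraries. Tcstv3 was at 2.31, 0.8995 and 1.48 FPKM in zygotes and 11.8, 8.22 and 6.18 in deletion embryos (log2 1.92 ± 0.328, SE, limma adjusted p = 2.65e-05), against 67.2 and 51.99 in wild-type 2-cell embryos. Tcstv1 was an exception, with 11.9, 6.57 and 9.14 FPKM in zygotes, 24.2, 37.4 and 23.8 in deletion and 32.8 and 26.02 in wild-type 2-cell embryos. The interval of its difference between the 2-cell groups lay within 2-fold. Arg2, an arginase, was at 8.05, 6.56 and 7.01 and 14.7, 11.4 and 16.5 FPKM, a call that quantile normalization ended (log2 0.22).

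Zscan4f, Zfp352, Alppl2, Slc34a2 and Crxos were singled out after their values were seen. Zscan4f was at 0.265, 0.151 and 0.1796 FPKM in zygotes, 7.37, 5.66 and 7.49 in deletion 2-cell and 52.8 and 36.02 in wild-type 2-cell embryos, though its near-identical copies make single values uncertain. Zfp352 was listed at 0, at 0.0841 and at 0 FPKM in zygotes, at 4.396, 1.51 and 3.66 in deletion 2-cell and 30.1 and 29.4 in wild-type 2-cell embryos. For both genes the 3 groups followed one another without overlap. Alppl2, a placental-type alkaline phosphatase, was at 0.677, 1.18 and 0.612 FPKM in zygotes and 3.04, 5.36 and 2.89 in deletion embryos, against 273 and 306 in wild-type 2-cell embryos. The difference from wild-type 2-cell embryos was -5.97 on the log2 scale for Alppl2, -5.90 for the phosphate transporter Slc34a2 and -5.46 for the homeobox gene Crxos, while the difference from zygotes was 1.36, 0.80 and 1.43.

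Early activation genes and nucleolar genes were also intermediate with FPKM as deposited. Median-of-ratios scaling divides FPKM by a size factor, 0.746 to 0.769 in zygotes and 1.00 to 1.03 in deletion embryos. The order of zygotes and deletion embryos by sum therefore depends on the scale. The 32 activation genes summed to 1009 to 1126 FPKM in zygotes, 1213 to 1374 in deletion embryos and 2336 and 2563 in wild-type 2-cell embryos. Of 26 tested, 21 were higher and 3 lower than in zygotes (median 1.396, and 1.01 without deletion library 3), where 56.5% of all genes were higher and 21.1% lower. Against wild-type 2-cell embryos 3 were higher and 17 lower (median -1.35), where 45.1% of all genes were higher and 26.0% lower. The 26 passed a filter on the zygote and deletion 2-cell libraries, so these counts describe them only. Fbl, the nucleolar methyltransferase fibrillarin, was at 7.51, 3.08 and 6.62 FPKM in zygotes and 25.1, 16.4 and 30.8 in deletion embryos (log2 1.92 ± 0.228, SE), against 146 and 153 in wild-type 2-cell embryos. Hspa8, the constitutive chaperone, was at 10.6, 10.9 and 10.98 FPKM in zygotes, 101, 71.7 and 175 in deletion and 119.8 and 104 in wild-type 2-cell embryos. Deletion libraries 1 and 2 lay below both wild-type 2-cell libraries and library 3 above them. The log2 difference of Hspa8 from zygotes was 3.21, and 2.86 without library 3. Hsp90aa1 was at 64.7, 50.9 and 77.4 FPKM in zygotes and 287, 189.8 and 246 in deletion embryos. Nucleolar ribosome biogenesis genes had 39 higher and 7 lower members of 52 (median 1.29, and 0.92 and 0.62 under the other scalings). Their sum was 1006 to 1015 FPKM in zygotes, 1198 to 1334 in deletion embryos and 2366 and 2535 in wild-type 2-cell embryos. Nhp2, an H/ACA particle protein, was at 1.61, 0.866 and 1.04 FPKM in zygotes, 9.11, 8.41 and 16.05 in deletion and 128 and 92.2 in wild-type 2-cell embryos. Gnl3, nucleostemin, was at 1.61, 2.71 and 2.13, 15.9, 14.4 and 18.3 and 33.1 and 36.9 FPKM in the same order, and Nop10 at 6.51, 8.44 and 6.21, 26.9, 39.4 and 42.4 and 51.2 and 35.2.

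Stress, damage and death genes had medians on both sides of that of all genes, of which 56.5% were higher and 21.1% lower. Heat-shock and chaperone genes had 25 higher and 4 lower of 31 (median 1.15, and 1.003 without deletion library 3). Cct2, of the cytosolic chaperonin, was at 7.34, 6.2996 and 7.78 FPKM in zygotes and 112, 124 and 97.3 in deletion embryos (log2 3.78 ± 0.107, SE), and Hspb1, a small heat-shock protein, at 9.98, 12.6 and 14.7 and 76.5, 122 and 116, against 125, 78.5 and 149.8 in deletion zygotes. Metallothioneins and stress genes had 14 higher and 2 lower of 18 (median 1.22, and 0.94 without deletion library 3). The metal-binding Mt1 was at 8.07, 9.74 and 7.79 FPKM in zygotes, 74.2, 95.9 and 99.4 in deletion 2-cell and 217 and 119 in wild-type 2-cell embryos, and Mt2 at 3.101, 1.97 and 3.74, 13.3, 11.3 and 26.4 and 182 and 143. Egr1, an immediate early factor, was at 3.799, 4.04 and 3.902 FPKM in zygotes and 32.04, 35.8 and 44.9 in deletion embryos, above the 8.83 and 10.04 of wild-type 2-cell embryos. Autophagy genes had 19 higher and 5 lower of 28 (median 1.17), with Atg5, needed for autophagosome formation, at 25.5, 22.2 and 25.6 and 128, 143 and 114 FPKM, and Map1lc3a at 3.93, 2.68 and 2.98 and 16.99, 17.2 and 21.7. These medians were above 0 under each scaling.

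DNA damage genes had 14 higher and 6 lower of 23 (median 0.84), near the shares over all genes (56.5% higher and 21.1% lower). The double-strand break factor Nbn was at 1.29, 1.13 and 1.46 FPKM in zygotes and 15.2, 13.9 and 9.94 in deletion embryos. Xrcc6, encoding Ku70, was at 2.03, 1.36 and 1.31 and 8.49, 10.995 and 6.31. Of 28 genes for p53 targets and cell death, 16 were tested, 7 higher and 8 lower (median -0.19, negative under each scaling). Bcl2l10, an abundant anti-death gene of the oocyte, was at 4098, 4486 and 3887 FPKM in zygotes and 1403, 1878 and 1000.1 in deletion embryos (log2 -1.59 ± 0.142, SE). Mcl1 was at 3.49, 3.95 and 4.02 and 8.9003, 6.902 and 14.1 FPKM, and the pro-apoptotic Bax at 3.31, 4.17 and 3.74 and 7.63, 6.83 and 15.03, a call lost with quantile normalization (log2 0.39, limma adjusted p = 0.0550). Of 39 replication licensing genes, 18 were higher and 14 lower, and the median of 0.20 became -0.23 with median-of-ratios scaling and -0.31 with quantile normalization. Gins2 of the replicative helicase was at 1.54, 3.11 and 1.99 FPKM in zygotes and 23.8, 22.7 and 17.4 in deletion embryos.

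Histone genes had 26 higher and 5 lower of 35 tested (median 1.53), where 56.5% of all genes were higher and 21.1% lower. Their sum was lower, 2526 to 2757 FPKM against 3368 to 3837 in zygotes. Hist1h2bc, a polyadenylated H2B gene, was at 4.46, 3.08 and 2.46 FPKM in zygotes and 73.8, 76.6 and 78.6 in deletion embryos (log2 4.18 ± 0.1404, SE), with 89.7, 93.5 and 96.7 in deletion zygotes and 4.06 and 3.94 in wild-type 2-cell embryos. Near-identical histone copies make single values uncertain. Polycomb and H3K9 methylation genes had 8 higher and 9 lower of 22 (median -0.06, negative under each scaling). The HP1 genes Cbx1 and Cbx3 were at 33.02, 36.9 and 40.6 and at 3.34, 4.65 and 3.44 FPKM in zygotes, and at 129, 163 and 124 and at 5.54, 7.301 and 18.8 in deletion embryos, where library 3 set the high value of Cbx3. Without that library the log2 difference of Cbx3 was 0.63 in place of 1.10, and quantile normalization ended its call (0.36). Dppa and pluripotency genes had 10 higher and 4 lower of 16 (median 0.93). Esrrb, an orphan receptor of pluripotent cells, was at 11.6, 13.03 and 11.5 FPKM in zygotes, 2.31, 2.196 and 1.97 in deletion 2-cell and 9.66 and 7.38 in wild-type 2-cell embryos.

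Among the genes whose interval lay within 2-fold of the zygote, the 5 most abundant were maternal transcripts. Btg4, the adaptor that brings the CCR4-NOT deadenylase to maternal mRNA, was at 2081, 2402 and 2041 FPKM in zygotes and 1647, 2039 and 1625 in deletion embryos (log2 -0.30 ± 0.0869, SE), and 0.31 with quantile normalization. Tcl1, needed for cleavage, was at 1979, 1878 and 1809 and 998, 1448 and 1002 FPKM (log2 -0.74 ± 0.109, and 0.02 with quantile normalization). Uchl1, the ubiquitin hydrolase of oocytes, was at 909, 707 and 772 and 1268, 1363 and 1106 FPKM. The oocyte maturation genes Omt2a and Omt2b differed by -0.03 and -0.51 on the log2 scale, both turning positive with quantile normalization (0.36 and 0.13). All 5 lay between 0.5-fold and 2-fold as deposited, and Btg4 and Tcl1 were above wild-type 2-cell embryos (1039 and 931 and 753 and 615 FPKM).

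Markers of other cell types were compared because library 3 held many. Of 12 stromal markers, none reached 1 FPKM in a zygote library, 5 and 4 did in deletion libraries 1 and 2, and 11 in library 3. Their sum was 2.08 to 2.91 FPKM in zygotes, 11.5 and 9.73 in libraries 1 and 2, and 409 in library 3. Of 18 granulosa and cumulus markers, 3 were at 1 FPKM or more in each zygote library (67.5 to 77.4 FPKM, led by Serpine2), 4 and 2 in libraries 1 and 2 (34.8 and 34.6) and 14 in library 3 (186, led by Cyp11a1), with Ptx3 at 0 in all 6. Of 17 immune markers, 2 to 4 were at 1 FPKM or more in zygotes (6.91 to 9.996), 4 and 1 in libraries 1 and 2 (10.6 and 7.16) and 9 in library 3 (51.7), with Cd3e and Cd3g at 0 in all 6. Epithelial markers summed to 56.3 to 69.3 FPKM in zygotes, 63.8 and 56.0 in libraries 1 and 2 and 107 in library 3. Red blood cell markers summed to 12.2 FPKM in zygote library 2 and to at most 0.422 elsewhere. The part of these transcripts in the differences from zygotes was not tested.

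The genes with the largest excess in library 3 were Saa3, Sparc, S100a6, H2-D1 and Cpe. Without that library the log2 difference from zygotes was 1.41 in place of 3.62 for Saa3, 0.82 in place of 2.70 for Sparc and 0.52 in place of 2.32 for Cpe, whose call was lost (limma adjusted p = 0.152). In the fit on the 6 libraries only, Saa3, Sparc and Cpe were not called (limma adjusted p = 0.0800, 0.106 and 0.143). Saa3, an acute-phase protein gene, was at 7.15, 1.65 and 459 FPKM in libraries 1 to 3 of the deletion group, and the matrix protein gene Sparc at 1.26, 1.12 and 107. For S100a6, a calcium-binding protein gene, the values were 0.327, 0 and 89.1 FPKM, against 1.42, 1.01 and 0.322 in zygotes, and the difference of 1.41 became -0.69 without library 3. The class I antigen gene H2-D1 was at 0.504, 0.2502 and 55.2 and the peptidase gene Cpe at 1.44, 0.869 and 89.4 FPKM. Neither S100a6 nor H2-D1 was called (limma adjusted p = 0.202 and 0.246).

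**Figure D5:**
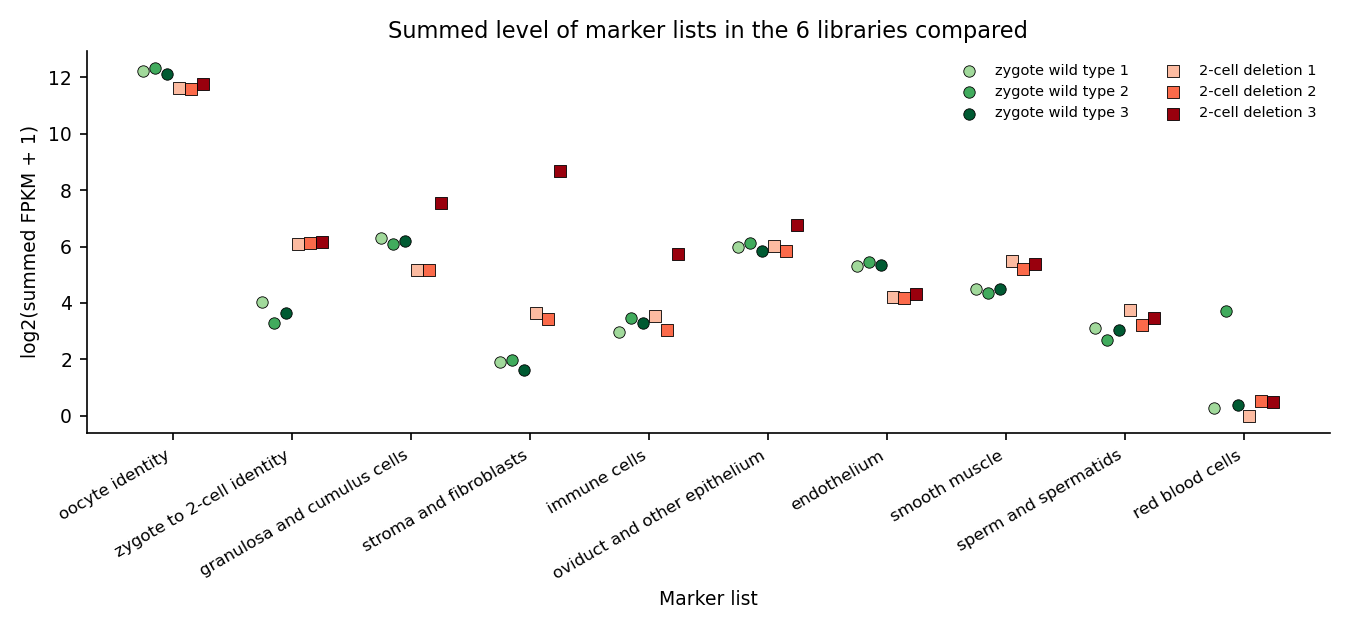
Summed FPKM of 10 marker lists (x axis) in the 3 wild-type zygote libraries (circles) and the 3 deletion 2-cell libraries (squares), as log2(summed FPKM + 1). Library 3 of the deletion embryos is highest for stroma (409 FPKM), granulosa (186), immune (51.7) and epithelial (107) markers, and all 3 deletion libraries are above the zygotes for 2-cell markers (66.6 to 70.9 against 8.79 to 15.5).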

How the data were processed

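RNA was sequenced from 23 samples of mouse oocytes and embryos (8 groups), and the 6 libraries of the comparison were read beside the others. Reads were processed by the authors with CASAVA 1.4, TopHat2 2.0.12, Cufflinks 2.2.1 and SAMtools, per the submitters' processing notes, which name both mm10 and mm9 without saying which applies to RNA. The deposited values are FPKM per gene, with 1 table of 24506 entries. The sources used here give neither read counts nor depth. Relative depth was read from the steps of low FPKM values (under 0.3) between libraries. The bisulfite data were not analysed here. Of 27 names in the table that were turned into dates, 18 were tested, and none is named.

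FPKM values were set to log2(FPKM + 1), and genes with at least 1 FPKM in at least 2 of the 6 libraries were kept. A log2 difference on this scale understates the change of low genes. Differences were fitted with limma 3.58.1 in R 4.3.3 (mean-variance trend, 8 group means, 15 residual degrees of freedom, Benjamini-Hochberg adjustment over all 10900 genes) and summarised with pandas 2.3.3 and numpy 2.4.6. The fit was tested on simulated data. Adjusted p-values under 0.05 were called. The stage axes required at least 5 FPKM in the higher group.

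Genes were named by rule: Cxxc1, the 15 largest increases and 15 largest decreases without overlap, with at least 5 FPKM on average and called without deletion library 3, up to 3 such members of each list, the 5 largest excesses in library 3 and the 5 most abundant genes within 2-fold. The members, lists and rules were chosen with earlier results of these data known. Alternatives were another pseudocount (0.1), no filter, a filter over 23 libraries, other scalings and a fit on the 6 libraries only. Array weights, the replicate number as a block and leaving out each library were also used.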

Additional observations from a re-analysis of the deposited data

How the results depend on the processing

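All counts of genes from the comparison stayed within 1.5 times under the 14 alternatives except these. Quantile normalization gave 3773 higher and 4124 lower genes, 1886 and 1870 of them at 2-fold, median-of-ratios scaling gave 1550 lower at 2-fold, and no filter gave 12650 genes within 2-fold. Leaving out each library in turn gave 5892 to 6179 higher and 2191 to 2371 lower genes. Wild-type zygotes moved on the oocyte-stage axis to 87.1% (sets at 2-fold), 82.1% (pseudocount 0.1), 74.6% (median-of-ratios) and 54.0% (quantile), and on the embryo-stage axis to -1.58%, -9.75%, 6.55% and 15.7%. Deletion 2-cell embryos moved on the oocyte-stage axis to 48.2% (quantile). Mean r over genes filtered on 23 libraries was 0.875 to wild-type zygotes, 0.787 to wild-type 2-cell embryos, 0.877 to Zp3-Cre and 0.861 to 3-week wild-type GV oocytes. With pseudocount 0.1, r was 0.751 to wild-type 2-cell embryos and 0.797 to 3-week wild-type GV oocytes, and the root mean square difference 1.72 to wild-type zygotes, 1.07 to deletion zygotes, 1.59 to wild-type 2-cell embryos, 1.35 to Zp3-Cre and 1.47 to 3-week wild-type GV oocytes. Quantile normalization, applied to likeness after seeing the data, gave 1.12 to wild-type zygotes and 1.38 to wild-type 2-cell embryos.

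Of 110 named genes, 97 had the same call and direction under all 14 alternatives. The choice of genes favoured this count. Those named as the largest differences had to be called without deletion library 3, which is 1 of the alternatives. The count therefore says little about the other genes. With 1 library left out in turn, S100a6 ran from -0.69 (without library 3) to 2.56 and H2-D1 from -0.68 (without library 3) to 2.06, both called without deletion library 2. Directions also reversed for H2-D1 with array weights (-0.15), for Btg4 (0.31), Tcl1 (0.02), Omt2b (0.13) and Omt2a (0.36) with quantile normalization, and for Omt2a when 1 library was left out (-0.14 to 0.07, with 0.04 without zygote library 2). Medians reversed for oocyte transcription factors (-0.16 with median-of-ratios, -0.0 with quantile), secreted factors (-0.21, -0.29), replication (-0.23, -0.31), mRNA decay (-0.4, -0.02, -0.06 with array weights, -0.04 to 0.12 with 1 library left out, -0.03 without deletion library 2), storage (-0.01, median-of-ratios) and DNA methylation (-0.19, quantile). The cause was not tested. Same-numbered zygote and 2-cell libraries were not treated as pairs in the main fit. The correlations of their deviations were 0.042, 0.048 and 0.027, against -0.062 to 0.029 for unlike numbers, which cannot decide whether they were paired. A fit with the replicate block called 8439 genes, 6155 higher and 2284 lower. Without read counts, low values carry no counting interval, and 3 libraries per group limit the precision.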

Other observations

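Sesn2 and Kdm5b were picked after their values were seen, as genes with a high level in wild-type 2-cell embryos that deletion 2-cell embryos did not reach. Sesn2, a stress-induced sestrin and p53 target, was at 1.28, 0.918 and 1.64 FPKM in wild-type zygotes, 3.27, 3.58 and 3.75 in deletion and 151 and 143 in wild-type 2-cell embryos. Kdm5b, an H3K4 demethylase, was at 0.606, 0.567 and 0.960 FPKM in wild-type zygotes, 3.23, 2.67 and 7.11 in deletion and 73.8 and 64.5 in wild-type 2-cell embryos, with library 3 the highest of the deletion group. In both genes the groups followed one another without overlap.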
